A study of Mus musculus with 4 samples.

Results

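The genes described are 10 that mark spermatogonial stem cells or are needed for their self-renewal in the mouse: Gfra1, Ret, Etv5, Id4, Zbtb16, Lhx1, Nanos2, Nanos3, Sall4 and Pou3f1. They were chosen by name, as known stem cell genes, with earlier results of these data known. Of the 10 genes, 9 have values in a table of 18419 genes, and Nanos2 is not among them, so no level of Nanos2 is given.

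Spermatogonial stem cells sit on the wall of the seminiferous tubule and keep spermatogenesis going for life. Sertoli and peritubular cells secrete GDNF, which the stem cell receives through the co-receptor GFRA1 and the receptor tyrosine kinase RET. Etv5, Lhx1 and Pou3f1 encode transcription factors known as targets of this signal, Id4 encodes an inhibitor of basic helix-loop-helix factors, and Zbtb16 (PLZF) and Sall4 encode zinc-finger repressors. Nanos2 and Nanos3 encode RNA-binding proteins that hold germ cells in the undifferentiated state. Retinoic acid ends that state and switches on Stra8 and Kit. Spermatogonia that commit then pass through meiosis as spermatocytes and become haploid spermatids.

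The cells came from testes of male ICR mice, an outbred stock, which were weanlings when treatment began and were sampled some weeks later. They were profiled with 10x Genomics 3' chemistry, which tags each transcript with a molecular barcode, so that transcripts are counted as unique molecular identifiers (UMIs). Group A0 received water by gavage, A10 received alginate oligosaccharides (AOS) at 10 mg/kg, B0 received a single injection of busulfan and then water, and BA10 received busulfan and then AOS at 10 mg/kg. Busulfan is an alkylating drug that can destroy germ cells of the testis, and AOS are short sugar chains made from brown seaweed alginate. Each group was 1 library of several mice pooled before capture, so there is no replicate and no test: all intervals are exact 95% intervals that cover counting error only.

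The libraries held 3778 to 9682 cells and 25323535 to 150812974 UMIs, with B0 the shallowest. Each began at its own lower limit of UMIs per cell, which was 7687 for A0 and 6716 for A10, against 2985 for B0 and 9013 for BA10. In all, 374 barcodes occurred in more than 1 library. Cells were grouped into 28 clusters with the 9 genes left out, and clusters were named from marker genes. The germ cell classes are called SPG-like for spermatogonia, SPC-like for spermatocytes and ST-like for spermatids, and the others are named for a somatic cell. B0 was mostly Leydig-like (2930 of 4659 cells), A0 and A10 mostly ST-like (5472 and 5976 cells) and BA10 mostly SPC-like (2506 of 3778 cells). The SPG-like class was a single cluster of 238 cells in B0, 13 in BA10, 1 in A10 and 0 in A0. These counts depend on the clustering, and clusters made anew from cells of at least 9013 UMIs gave SPG-like cells in every library. A level is given in CPM, the UMIs of a gene in a library or class per 1000000 UMIs counted there. It is not divided by transcript length, since the 3' method reads only the end of each transcript.

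RefSeq promoters (250 bases before the start site to 50 after, build GRCm38.p6) were found for 6 of the 10 genes. The promoters of Lhx1, Gfra1 and Id4 are shown because in the control library ST-like cells held most of the UMIs of Lhx1 and Gfra1, and SPC-like cells most of those of Id4. Many spermatid genes are driven through the cAMP response element (CRE, TGACGTCA). Its first 5 letters, are in capitals where they occur, as TGACG or, on the opposite strand, as CGTCA.
Lhx1, chr11:84525485-84525784, minus strand: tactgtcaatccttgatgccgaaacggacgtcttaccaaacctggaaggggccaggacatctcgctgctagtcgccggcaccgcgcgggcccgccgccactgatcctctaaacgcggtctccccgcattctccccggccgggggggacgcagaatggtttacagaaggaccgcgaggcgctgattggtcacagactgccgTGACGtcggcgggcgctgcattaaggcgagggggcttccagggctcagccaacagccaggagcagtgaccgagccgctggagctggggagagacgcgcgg
Gfra1, chr19:58455349-58455648, minus strand: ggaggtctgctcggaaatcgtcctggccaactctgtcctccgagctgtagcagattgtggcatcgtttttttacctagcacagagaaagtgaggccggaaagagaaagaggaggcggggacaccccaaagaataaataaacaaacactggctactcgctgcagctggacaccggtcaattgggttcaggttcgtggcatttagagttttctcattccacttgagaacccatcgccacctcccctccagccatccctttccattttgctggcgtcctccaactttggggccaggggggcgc
Id4, chr13:48260866-48261165, plus strand: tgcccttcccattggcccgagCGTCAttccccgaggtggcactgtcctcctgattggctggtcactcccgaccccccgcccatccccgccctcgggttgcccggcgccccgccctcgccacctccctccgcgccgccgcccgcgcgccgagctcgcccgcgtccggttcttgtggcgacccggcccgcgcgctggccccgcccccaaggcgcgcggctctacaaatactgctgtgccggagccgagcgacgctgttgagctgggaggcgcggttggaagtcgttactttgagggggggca

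None of the 3 windows held the full CRE, which occurs in 1.79% of 32851 mouse promoters of this length. The TGACG letters lie in the Lhx1 window at position -50 and in the Id4 window at position -229, on the opposite strand, counted from the start site as 0. These letters occur in 20.8% of all promoters, a share that includes every full CRE. The GC box (GGGCGG, either strand) occurs 5 times in the Id4 window and in 35.7% of all promoters, and is in neither the Lhx1 nor the Gfra1 window. The TATA box letters TATAAA, in 13.6% of all promoters, are in none of the 3. A match is a description of these letters and not a binding site.

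The first question was how much of these transcripts each library held. The 9 genes together gave 6963 UMIs in A0 (46.2 CPM), 7038 in A10 (48.97 CPM), 2628 in B0 (104 CPM) and 7589 in BA10 (83.1 CPM). Id4 made up 75.8% of them in A0, 77.6% in A10 and 89.7% in BA10, but only 24.7% in B0. Without Id4 the sum was 11.2 CPM in A0 and 10.97 in A10, against 78.2 in B0 and 8.56 in BA10, so B0 stood apart from the other 3 libraries and BA10 was the lowest. Much of this lay in cells below the UMI limits of the other libraries: with only cells of at least 9013 UMIs, the limit of BA10, the sum without Id4 was 15.2 CPM in B0 (104 UMIs, 12.4 to 18.4), 11.1 in A0 and 8.56 in BA10. That limit left 448 of the 4659 cells of B0, among them 335 of cluster 13, 20 of the 2930 Leydig-like cells and 0 of the 238 SPG-like cells, so it changed the makeup of B0 as well as its depth. Over all cells, the sum of this gene set thus followed Id4 in 3 libraries and other genes in B0. In the cells of B0 above the limit Id4 led too, with 347 UMIs against the 104 of the other genes.

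Gfra1 lies on chr19:58235604-58455909 and Ret on chr6:118151745-118197718 (mm10, both on the minus strand). Gfra1, the GDNF co-receptor, had 390 UMIs in A0 (2.59 CPM), 349 in A10 (2.43), 23 in B0 (0.908) and 73 in BA10 (0.80). A0 and A10 did not differ beyond counting error, nor did B0 and BA10, and the busulfan libraries lay below the others: B0 was 2.85-fold lower than A0 (1.87 to 4.55) and BA10 3.23-fold lower (2.51 to 4.21). Ret, the signalling receptor of the pair, ran the other way, with 21 UMIs in A0 (0.139 CPM), 19 in A10 (0.132), 25 in B0 (0.987) and 10 in BA10 (0.110). Ret in B0 was 7.09-fold higher than in A0 (3.81 to 13.3), and the other 3 libraries could not be told apart. The co-receptor and the receptor of one ligand were thus in opposite order between A0 and B0.

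Among the GDNF target factors, Etv5 (chr16:22381309-22439719) had 61 UMIs in A0 (0.404 CPM), 59 in A10 (0.411), 776 in B0 (30.6) and 125 in BA10 (1.37). B0 was 75.8-fold above A0 (58.3 to 100.01) and 22.4-fold above BA10 (18.5 to 27.3). With only cells of at least 9013 UMIs, Etv5 in B0 was 8.07-fold above A0 (4.76 to 13.3) and 2.45-fold above BA10 (1.498 to 3.84). Pou3f1 (chr4:124656807-124660655) showed the same order with fewer UMIs: 10 in A0 (0.0663 CPM), 12 in A10 (0.0835), 124 in B0 (4.90) and 38 in BA10 (0.416). Its B0 level was 73.8-fold above A0 (38.8 to 158), and BA10 lay 6.28-fold above A0 (3.07 to 14.1). Lhx1 (chr11:84518284-84525535) was the reverse, at 772 UMIs in A0 (5.12 CPM), 638 in A10 (4.44), 5 in B0 (0.197) and 16 in BA10 (0.175). It was 25.9-fold lower in B0 than in A0 (11.1 to 80.1) and 29.2-fold lower in BA10 (17.9 to 51.4), while B0 and BA10 did not differ beyond counting error. So 2 of the 3 target factors were highest in B0, and Lhx1 was near its lowest there.

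Zbtb16 (chr9:48654297-48836222) had 121 UMIs in A0 (0.802 CPM), 90 in A10 (0.626), 802 in B0 (31.7) and 102 in BA10 (1.12). Sall4 (chr2:168748332-168767943) had 11 in A0 (0.0729 CPM), 4 in A10 (0.0278), 106 in B0 (4.19) and 30 in BA10 (0.329). Both repressors were highest in B0, 39.5-fold above A0 for Zbtb16 (32.6 to 48.2) and 57.4-fold for Sall4 (30.8 to 118), and BA10 came next in both. Above 9013 UMIs, Zbtb16 in B0 was 1.96-fold above A0 with an interval that held 1 (0.954 to 3.65), and B0 had 1 UMI each of Sall4 and Pou3f1 and 0 of Ret, which allows up to 0.437 CPM, so that the orders of these 3 genes could not be seen there. Id4 (chr13:48261228-48266026) was the most counted of the 9, with 5281 UMIs in A0 (35.0 CPM), 5462 in A10 (38.0), 648 in B0 (25.6) and 6807 in BA10 (74.6). BA10 was 2.13-fold above A0 (2.05 to 2.21) and 2.91-fold above B0 (2.69 to 3.16). Nanos3 (chr8:84173731-84185217) had 296 UMIs in A0 (1.96 CPM), 405 in A10 (2.82), 119 in B0 (4.70) and 388 in BA10 (4.25). Its levels in B0 and BA10 did not differ beyond counting error, and both lay above A0. Above 9013 UMIs, Nanos3 in B0 was 4.44-fold above A0 (3.30 to 5.88) and 2.06-fold above BA10 (1.54 to 2.71).

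**Figure D1:**
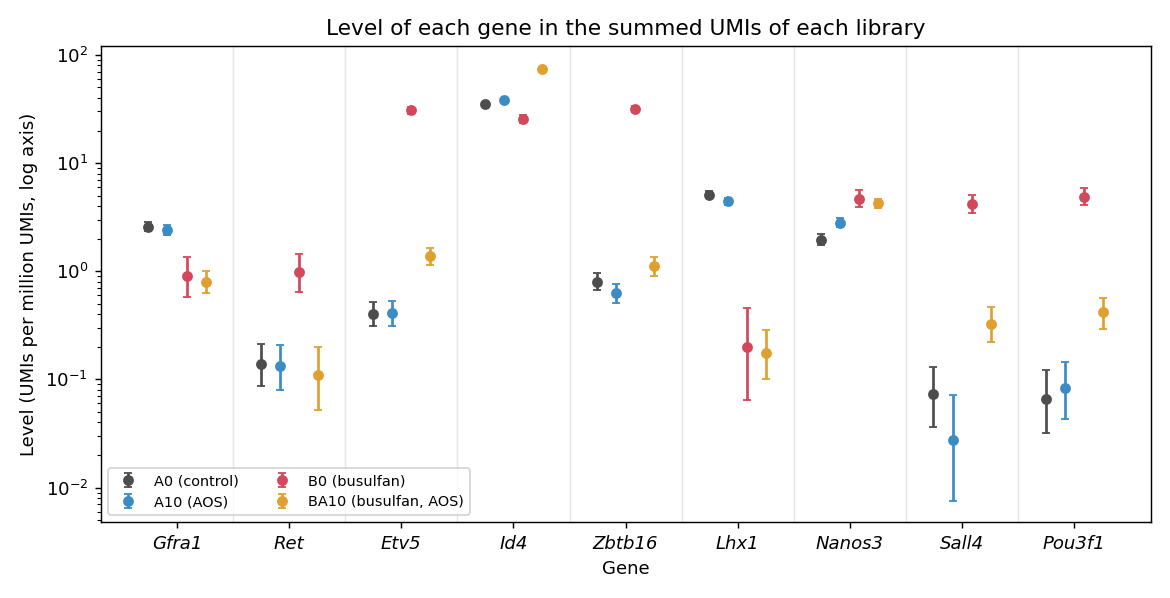
The level of each of the 9 genes in each library, in CPM on a log axis; points are the summed level and bars the exact 95% Poisson interval. Etv5, Zbtb16, Sall4, Pou3f1 and Ret are highest in B0, Gfra1 and Lhx1 are lowest in the busulfan libraries, and Id4 is highest in BA10.

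With AOS alone (A10 over A0), 0 of the 9 genes passed 2-fold on the log2 scale with 1 CPM added. Of all 16674 genes tested, 0.108% did, 0.0360% being higher and 0.0720% lower. The largest ratio whose interval left out 1 was that of Nanos3, at 1.44 (1.23 to 1.67), followed by Id4 at 1.09 (1.04 to 1.13), and Lhx1 was lower at 0.867 (0.780 to 0.964). The intervals of the other 6 genes held 1, for Sall4 on 4 and 11 UMIs and thus over a wide range (0.0886 to 1.29).

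With busulfan (B0 over A0), Etv5, Zbtb16, Sall4 and Pou3f1 were past 2-fold higher, 4 of 9 against 39.0% of all genes, and Lhx1 was past 2-fold lower, 1 of 9 against 16.2%. In either direction 5 of 9 genes passed 2-fold and 55.2% of all genes did, so the share of the 9 was that of the background, and their median log2 ratio was 0.94 against 0.45 over all genes. With AOS after busulfan (BA10 over B0), 1 of 9 was higher (Id4) against 12.3% of all genes, and 4 of 9 were lower (Etv5, Zbtb16, Sall4, Pou3f1) against 36.9%, or 49.2% in either direction. Against the control (BA10 over A0), Id4 was past 2-fold higher and Lhx1 past 2-fold lower, where 11.6% and 12.8% of all genes were, or 24.3% in either direction. The comparisons share the A0, B0 or BA10 library. In each of them, fewer cells of a type and less RNA per cell cannot be told apart in a summed library, and the UMI limits and the makeup of cells differed between the libraries at the same time. With only cells of at least 9013 UMIs, 0 of the 9 genes were past 2-fold in BA10 over B0, where 0.884% of all genes were higher and 13.3% lower (14.2% in either direction), and Id4 was 1.47-fold above B0 (1.32 to 1.65). In B0 over A0, 3 of the 9 then passed 2-fold, 2 of them higher and 1 lower, where 19.9% and 7.93% of all genes did (27.8% in either direction). The Id4 level of B0 was then 50.6 CPM and above that of A0 (35.3).

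The cells behind these levels differed from gene to gene. In the control library, 84.1% of Gfra1 UMIs (328 of 390) and 91.7% of Lhx1 UMIs (708 of 772) came from ST-like cells, which held 58.5% of all UMIs. SPC-like cells gave 77.3% of Id4 UMIs (4084 of 5281) with 40.1% of all UMIs. Sall4 and Pou3f1 were seen in A0 mostly in 1 small unnamed cluster of 110 cells, number 22, with 8 of 11 and 7 of 10 UMIs, although that cluster held 1.07% of all UMIs. Cluster 22 shared 5 of its 10 leading genes with the SPG-like cluster, Stra8 and Crabp1 among them. The same cluster held 18.2% of the Zbtb16 UMIs of A0 (22 of 121) and 10 of its 390 Gfra1 UMIs, and 5 of its 110 cells showed at least 3 of the genes. In this clustering no cell of A0 was in the SPG-like cluster, and 0 of 8941 cells allows a share of up to 0.0336%. That limit covers counting error for this cluster only. It does not cover how the cells were split into clusters, so it is no limit on the share of spermatogonia in A0. When clusters were made anew from cells of at least 9013 UMIs, SPG-like cells held 1.35% of the genes' UMIs in A0 and 0.641% in A10. The shares were then 0.887% in B0 and 1.78% in BA10, the reverse of the order over all cells (17.0% in B0 and 0.343% in BA10).

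In B0 the picture was another. SPG-like cells held 3.99% of all UMIs of that library but 84.9% of Sall4 UMIs (90 of 106), 68.5% of Pou3f1 (85 of 124), 68.0% of Ret (17 of 25) and 60.9% of Gfra1 (14 of 23). They held 31.1% of Nanos3 UMIs and 18.5% of Zbtb16 UMIs. Only 4.94% of Id4 UMIs and 2.71% of Etv5 UMIs were theirs. Leydig-like cells, which held 49.9% of all UMIs, gave 68.7% of Zbtb16 (551 of 802) and 77.4% of Etv5 (601 of 776). The large totals of Etv5 and Zbtb16 in B0 were therefore mainly those of Leydig-like cells and not of spermatogonia.

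**Figure D2:**
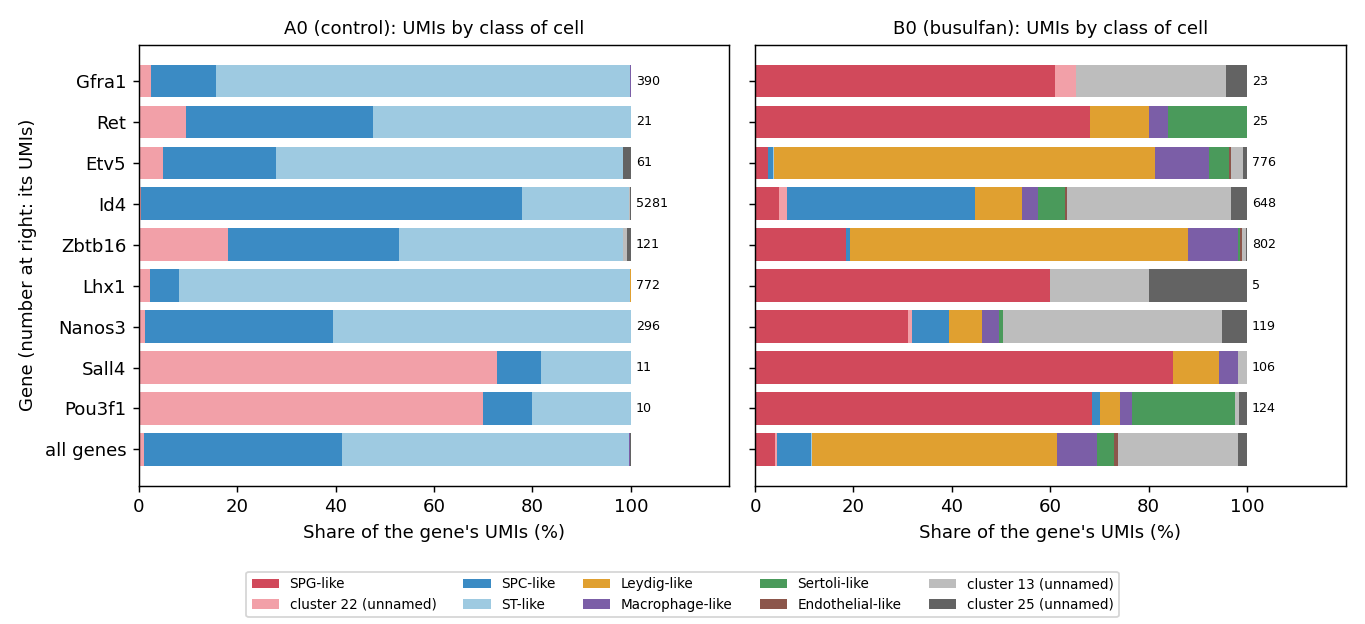
Share of each gene's UMIs by class of cell in A0 (left) and B0 (right), in percent, with the gene's number of UMIs beside each bar and the share of all genes' UMIs at the bottom. Red marks SPG-like cells, which in this clustering hold 0 UMIs in A0 and most of the UMIs of Sall4, Pou3f1, Ret, Gfra1 and Lhx1 in B0. Orange marks Leydig-like cells.

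The SPG-like cluster was named from the markers given next, so their levels describe it and are no check of its name. Stra8, the retinoic acid target, had a UMI in 79.4% of the 238 SPG-like cells of B0 and in 1.47% of the other cells of that library. Crabp1 was seen in 53.4% against 0.746%, Sohlh1 in 47.1% against 0.565%, Dmrt1 in 53.4% against 3.26% and Lin28a in 17.2% against 0.249%. Kit did not separate them, at 25.6% against 36.0%. Marker genes of other cells were also present: Insl3 of Leydig cells was in 58.4% of SPG-like cells at 229 CPM against 11865 CPM in Leydig-like cells, Cst12 of Sertoli cells was in 90.3%, Lyz2 of macrophages in 7.14% and Prm1 of spermatids in 1.68%. In the other cells of B0 that were not Leydig-like, Insl3 was in 55.6% of Endothelial-like, 56.3% of Sertoli-like, 64.7% of SPC-like and 92.1% of Macrophage-like cells, and in 80.5% and 72.7% of the unnamed clusters 13 and 25. Cst12 was in 72.2% of Endothelial-like, 77.4% of Leydig-like, 82.3% of Macrophage-like, 94.2% of SPC-like and 99.5% of Sertoli-like cells of B0. In the unnamed clusters 13 and 25 of B0 it was in 97.4% and 92.7%. The part of RNA from other cells in the levels of the 9 genes was not tested.

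Within B0, the level in SPG-like cells can be set beside that in the other cells of the same library. Sall4 stood at 89.1 CPM (71.7 to 110) against 0.658, a ratio of 135 (79.0 to 247). Pou3f1 was at 84.2 CPM against 1.60, a ratio of 52.5 (35.5 to 78.8), and Ret at 16.8 CPM against 0.329, a ratio of 51.2 (20.9 to 137). These 3, with Gfra1 at 13.9 CPM and a ratio of 37.5 (15.1 to 98.1), were the members most held by SPG-like cells. Lhx1 had only 3 UMIs there and 2 elsewhere, a ratio of 36.1 with the interval 4.14 to 433. Nanos3 was at 36.6 CPM, 10.9 times the rest (7.16 to 16.2), and Zbtb16, the highest of all at 147 CPM (124 to 172), was 5.45 times the rest (4.53 to 6.52). Id4 (ratio 1.25, 0.848 to 1.78) and Etv5 (0.670, 0.412 to 1.03) did not differ from the rest beyond counting error. Of the 9 genes, 7 had an interval above 1, where 28.4% of all 18419 genes did and 22.0% had one below 1. These 2 shares, also where they are given below, had no lower limit on UMIs. They include genes with few or no UMIs in B0, whose intervals can hardly leave out 1, so they are low for genes with many UMIs. The 9 genes were left out of the clustering but their neighbours in expression were not, so these ratios describe the cluster and are no test. Under 5 other clusterings, a comparison added after the data were seen, each of the 9 levels stayed within its interval.

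**Figure D3:**
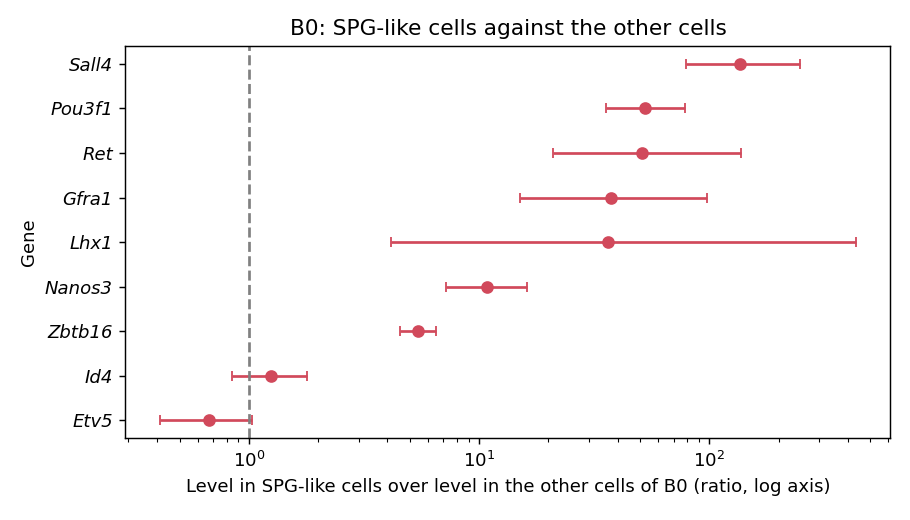
Level in SPG-like cells of B0 divided by the level in the other cells of B0, on a log axis, with exact 95% intervals. Sall4, Pou3f1 and Ret are farthest to the right, and the intervals of Id4 and Etv5 cross the dashed line at 1.

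The other libraries held few such cells. The 13 SPG-like cells of BA10 had 8 UMIs of Zbtb16 (56.7 CPM, 24.5 to 112), 7 of Pou3f1 (49.6 CPM, 19.9 to 102), 5 of Nanos3, 4 of Sall4, 2 of Id4 and 0 of the other 4 genes. In these few cells the intervals of Pou3f1, Nanos3 and Id4 overlapped those of B0. That of Sall4 did so only narrowly, at its upper end, and that of Zbtb16 ended below it. The comparison was planned only for libraries with at least 50 SPG-like cells each, so it is a description. An absent gene here means little, since 0 UMIs in these 13 cells allows up to 21.3 CPM, above the B0 level of Gfra1, Ret, Etv5 and Lhx1. BA10's SPG-like cells had a median of 10106 UMIs and those of B0 4081. The unnamed cluster 22 held 110 cells of A0 and 104 of A10, and shared 5 of its 10 leading genes with the SPG-like cluster. With clusters made anew from cells of at least 9013 UMIs, some cells of A0 and of A10 were SPG-like. In the clustering of all cells these lay in other clusters, since the 1 SPG-like cell of A10 there had 6929 UMIs. Which clusters had held them was not tested. Whether further such cells of A0 and A10 were absent, or lost below the UMI limits there, was not tested either.

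Next, cells were counted by how many of the 9 genes they showed. At least 3 genes were seen in 42 cells of A0 (0.470%, 0.339 to 0.634), 38 of A10 (0.392%), 49 of B0 (1.05%, 0.779 to 1.39) and 39 of BA10 (1.03%). The median cell had 4214 UMIs in B0 and 17989 in BA10, so each cell was also thinned to 2900 UMIs, which left out no cell. Then 29 cells of B0 showed at least 3 genes (0.622%, 0.417 to 0.893), against 1 cell of A0 and none of A10 or BA10, where 0 of 3778 allows up to 0.0794%. The shares of B0 and BA10, alike at full depth, were thus apart after thinning. With only cells of at least 9013 UMIs the order was the other way, 3 of 448 cells of B0 (0.670%, 0.138 to 1.94) and 1.03% of BA10, with overlapping intervals and no SPG-like cell of B0 left.

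The kinds of cell differed as well. Of the 49 cells of B0, 42 were SPG-like and 1 was Leydig-like, and all 17 cells with at least 4 genes were SPG-like. In BA10, 15 of the 39 cells were in cluster 22, 14 were SPC-like and 4 SPG-like. In A0, 26 of 42 were ST-like and 10 SPC-like. The most frequent set in B0 was Zbtb16, Sall4 and Pou3f1 (4 cells). In A0 it was Gfra1, Id4 and Lhx1 (8 cells), which are the 3 genes that were most counted in its ST-like cells. Of all SPG-like cells of B0, 68.9% had at least 1 gene, 45.4% at least 2 and 17.6% at least 3.

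Inside the 238 SPG-like cells of B0, the genes were set against Stra8, which is switched on as spermatogonia differentiate. Gfra1 had a UMI in 9 of the 49 cells without Stra8 (18.4%, 8.76 to 32.0) and in 4 of the 189 with it (2.12%, 0.580 to 5.33). Ret was in 14.3% of cells without Stra8 and 3.70% of those with it, Nanos3 in 24.5% and 10.1%, and Zbtb16 in 57.1% (42.2 to 71.2) and 34.9% (28.1 to 42.2). Sall4 was alike in both, at 30.6% and 29.1%, and Pou3f1 was at 20.4% (10.2 to 34.3) and 28.04% (21.8 to 35.02). Cells with Stra8 had a median of 4148 UMIs and those without it 3707. The intervals of Gfra1 and, narrowly, of Zbtb16 lay apart, and those of the other 7 genes overlapped. Intervals that overlap do not show that the shares were equal.

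**Figure D4:**
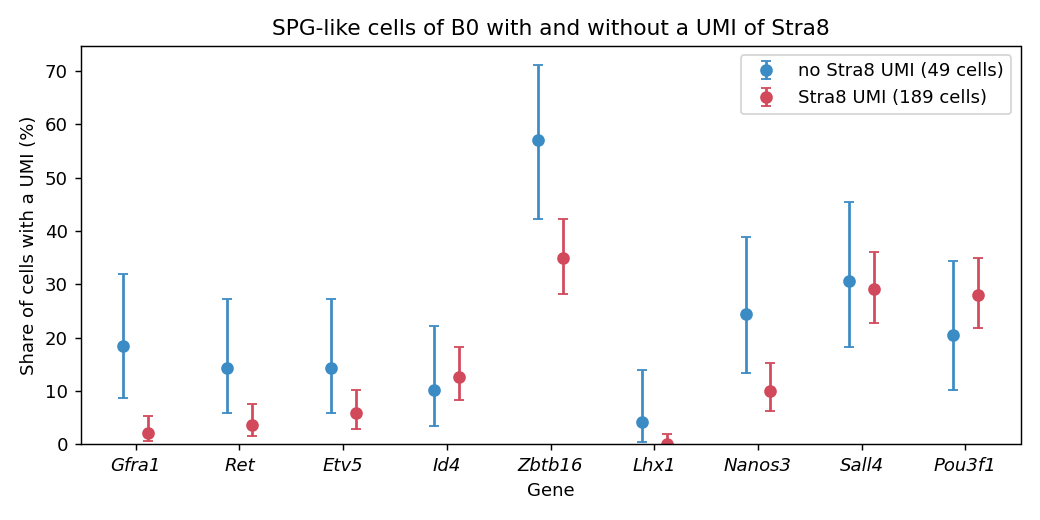
Share of SPG-like cells of B0 with a UMI of each gene, in percent with exact 95% intervals, for the 49 cells without and the 189 cells with a UMI of Stra8. Gfra1 is at 18.4% without and 2.12% with Stra8, while Sall4 is at 30.6% and 29.1%.

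The cells were also set against Kit, the receptor of differentiating spermatogonia. Nanos3, whose intervals had overlapped for Stra8, was in 1 of 61 cells with Kit (1.64%, 0.0415 to 8.80) and 30 of 177 without (16.9%, 11.7 to 23.3). The genes whose intervals lay apart for Stra8 overlapped for Kit: Gfra1 was in 1.64% of cells with Kit and 6.78% of those without, and Zbtb16 in 32.8% and 41.8%. Ret was in 0 of 61 cells with Kit and 14 of 177 without, with overlapping intervals. Kit was also seen in the other cells of B0 (36.0%), and the part of RNA from other cells in Kit UMIs was not tested. The 13 cells with Gfra1 had Zbtb16 in 10, Sall4 in 5, Etv5 in 4, Pou3f1 in 4 and Ret in 2. Among the 225 cells without Gfra1, Zbtb16 was in 37.3% (31.0 to 44.0), against 76.9% of those with it (46.2 to 94.96), and these intervals lay apart. Etv5 was in 6.22% of the cells without Gfra1 (3.44 to 10.2) against 30.8% (9.09 to 61.4), intervals that overlapped. The Gfra1 cells had a median of 4227 UMIs and the others 4069.

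Cluster 22, which shared leading genes with the SPG-like cluster, could be compared across A0, A10 and BA10, with 110, 104 and 115 cells. It was left unnamed because spermatogonial markers (Stra8, Crabp1 and Rhox13) were among its leading genes while its marker score was highest for spermatocytes. Sall4 was at 4.98 CPM in A0 (8 UMIs), 0.851 in A10 (1 UMI) and 6.09 in BA10 (15 UMIs), and Pou3f1 at 4.35, 9.36 and 7.30 CPM, with all intervals overlapping. Id4 was 3.72-fold higher in BA10 than in A0 (2.46 to 5.83) and Nanos3 3.42-fold (1.16 to 13.7), while Gfra1 was lower in BA10 (ratio 0.196, 0.0346 to 0.760), as was Zbtb16 (ratio 0.385, 0.178 to 0.80), at 13.7 CPM in A0, 7.66 in A10 and 5.28 in BA10. The cells of this cluster were not alike in other transcripts: Prm1, a spermatid gene, was at 18384 CPM in A0, 16560 in A10 and 523 in BA10, and Scrublet called 17.3%, 8.65% and 0.870% of them doublets. Lhx1, which ST-like cells carried, was likewise 13.8-fold lower in BA10 than in A0 in this cluster (2 against 18 UMIs). Macrophage-like cells of BA10 had Id4 at 58.0 CPM (45.0 to 73.5) and Nanos3 at 5.12 CPM (1.88 to 11.1), intervals that overlapped those of cluster 22 in BA10 (62.5 and 8.52 CPM). The part of RNA from other cells in these differences was not tested.

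Id4 was highest in spermatocyte-like cells. Its 3 highest clusters of the 28 were all SPC-like, numbers 11 (161 CPM, a UMI in 88.7% of cells), 15 (158 CPM) and 14 (87.4 CPM), against 31.7 CPM in SPG-like cells of B0. Clusters 11 and 15 shared 6 of their 10 leading genes, Tex101 and Gml among them, but held cells of different libraries. Id4 in cluster 11 was at 160 CPM in A0 (151 to 170) and 164 in A10 (154 to 173), and in cluster 15 at 142 CPM in B0 (124 to 161) and 160 in BA10 (154 to 167). The 4 intervals overlapped, although the libraries as a whole ranged from 25.6 to 74.6 CPM. A later pair was alike too: clusters 14 and 20, both led by Pou5f2, were at 85.0 CPM in A0 (80.5 to 89.8), 89.6 in A10 and 86.4 in BA10 (82.6 to 90.3). Over all SPC-like cells BA10 was 1.29-fold above A0 (1.24 to 1.34), but different clusters made up that class, mainly 2, 3, 11, 14 and 16 in A0 and 6, 15 and 20 in BA10. SPC-like cells held 73.3% of all UMIs in BA10, 40.1% in A0 and 6.99% in B0, and the part of this makeup in the Id4 level of the libraries was not tested. Id4 was not held by germ cells alone: it stood at 41.9 CPM in Sertoli-like cells of B0 (29.3 to 58.0), above the 4.91 CPM of Leydig-like cells of the same library (3.76 to 6.29).

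Lhx1 was highest in spermatid-like cells. Its highest clusters were ST-like 7 (25.9 CPM, 31.3% of cells with a UMI), 12 (16.1 CPM) and 1 (10.49 CPM), the last with Prm1 and Prm2 among its leading genes. In A0 it stood at 8.03 CPM in ST-like (7.45 to 8.64) and 0.744 CPM in SPC-like cells (0.542 to 0.995). Gfra1 was at 3.72 (3.33 to 4.15) and 0.843 CPM (0.627 to 1.11), so both differed between these classes of 1 library beyond counting error. Not all ST-like cells of A0 had high Lhx1: clusters 4 and 5 were at 0.515 and 0.493 CPM. In cluster 7, A0 was at 25.8 CPM (23.02 to 28.9) and A10 at 26.1 (22.9 to 29.6). ST-like cells of BA10 were mostly another cluster, 21, with 380 of 421 cells, and there Lhx1 had 0 UMIs, which allows up to 0.389 CPM. Gfra1 differed in this. It had 42 UMIs in cluster 21 (5.44 CPM, 3.92 to 7.36), close to clusters 9 and 17 of A0 (6.06 and 5.17 CPM). Over all ST-like cells, BA10 was 1.58-fold above A0 for Gfra1 (1.15 to 2.14) and 7.57-fold below A0 for Lhx1 (9 against 708 UMIs). Of the 73 Gfra1 UMIs of BA10, 68.5% were in ST-like cells and 0 in SPG-like cells. In cluster 21, 9.74% of cells had a Gfra1 UMI. In Leydig-like cluster 0 of B0 both genes had 0 UMIs, which allows up to 0.242 CPM.

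Etv5 and Zbtb16 were carried by somatic cells as well. In Leydig-like cluster 0 of B0, Etv5 was at 48.0 CPM (44.2 to 52.0) and Zbtb16 at 44.3 CPM (40.7 to 48.2). Some other cells of the same library had less: in SPC-like cluster 15 of B0 they were at 4.68 and 4.09 CPM, and in the unnamed cluster 13, led by hemoglobin and Sertoli genes, at 2.90 and 1.13 CPM. The genes also parted in Sertoli-like cells of B0, with Etv5 at 37.2 CPM (25.5 to 52.5) and Zbtb16 at 3.49 CPM (0.720 to 10.2). Macrophage-like cells of B0 had both at 41.4 and 39.4 CPM, but these cells also had Insl3 at 7902 CPM, in 92.1% of them, while those of BA10, with Insl3 at 368 CPM, had 1 UMI of Etv5 and 2 of Zbtb16. Leydig-like cells of BA10 were lower than those of B0, 3.57-fold for Etv5 and 4.37-fold for Zbtb16, but 78 of those 128 cells were cluster 26, against 24 of 2930 in B0. In cluster 0 alone, the 50 cells of BA10 had Etv5 at 28.6 CPM (16.0 to 47.2) and Zbtb16 at 22.9 CPM (11.8 to 40.0). The interval of Etv5 overlapped that of B0, and the interval of Zbtb16 ended just below it.

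The somatic UMIs of Pou3f1 in B0 lay mostly in Sertoli-like cells, at 30.2 CPM (19.8 to 44.3), with a UMI in 9.64% of 197 cells. Ret was next highest there too, with 4 UMIs (4.65 CPM, 1.27 to 11.9). Sall4 had 0 UMIs in those cells, which allows up to 3.49 CPM. Outside the SPG-like cells, Nanos3 was found in germ cell and somatic classes, at levels that differed. It was at 1.87 CPM in SPC-like and 2.03 CPM in ST-like cells of A0, and at 3.89 and 6.01 CPM in those of BA10, where Leydig-like cells had it at 3.33 CPM (1.44 to 6.56). In B0, 53 of its 119 UMIs lay in cluster 13, at 8.53 CPM (6.39 to 11.2) in cells with a median of 9865 UMIs. Nanos3 stood at 13.4 CPM in cluster 25 of B0 (6 UMIs) and at 0.633 CPM in Leydig-like cells of B0 (8 UMIs). Its ratio of A10 to A0 was alike in SPC-like (1.38, 1.08 to 1.77) and ST-like cells (1.44, 1.18 to 1.75). Nanos3 was the only one of the 9 whose interval left out 1 in both classes in that comparison.

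**Figure D5:**
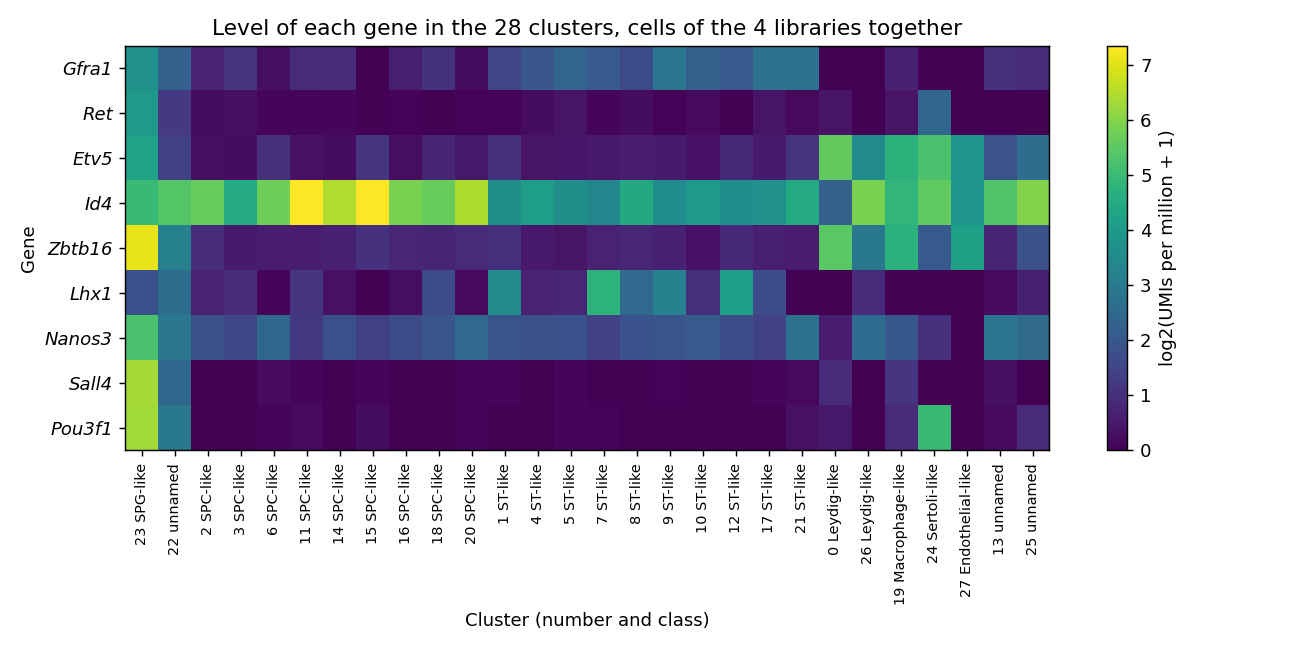
Level of the 9 genes in the 28 clusters, all libraries together, as log2 of CPM plus 1 (colour). Sall4 is bright in 1 cluster, the SPG-like 23, while Id4 is brightest in SPC-like clusters 11 and 15, Lhx1 in ST-like 7, Etv5 in Leydig-like 0 and Pou3f1 is next highest in Sertoli-like 24.

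Other genes of the pathway were taken from lists. Of 16 further genes of undifferentiated spermatogonia, 15 had values, and 10 were higher in SPG-like cells than in the rest of B0 beyond counting error, where 28.4% of all genes were. The 3 with the highest level in SPG-like cells were Foxo1, a factor downstream of insulin signalling (110 CPM against 14.1), Dnd1, an RNA-binding protein of germ cells (69.3 against 7.61), and Taf4b, a TFIID subunit (47.5 against 6.29). Eomes and T had 0 UMIs in SPG-like cells of B0, and Tspan8 was lower there (5.94 CPM against 116). All 8 genes of differentiating spermatogonia had values and 6 were higher, again against 28.4% of all genes, led by Stra8 (636 CPM), Sohlh1 (173 CPM) and Ccnd2 (148 CPM), a cyclin. The exceptions were Kit and Dmrtb1, which were lower. Some genes of both lists also named the cluster (Stra8, Sohlh1, Kit, Rhox13 and Lin28a), so that their part of these counts is built in. Without them, 9 of 14 genes of the undifferentiated list and 3 of 4 of the differentiating list were higher, and 1 of each was lower.

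Of 15 genes of GDNF receptor signalling, 7 were higher in SPG-like cells than in the rest and 1 was lower, against 28.4% and 22.0% of all genes. The adaptor Grb2 was at 115 CPM against 58.2, and Nrtn, a ligand of the GDNF family, at 71.3 against 7.07. Past 2-fold, 11 of 15 were higher in B0 than in A0 and 1 was lower (39.0% and 16.2% of all genes). In BA10 over B0, 9 of 15 were lower and 1 was higher (36.9% and 12.3% of all genes). Gdnf itself had few UMIs, 67 in A0 (0.444 CPM) and 94 in A10 (0.654), against 22 in B0 (0.869) and 18 in BA10 (0.197). Of 9 niche factors, 8 had values, 0 were higher in SPG-like cells and 4 were lower, against 28.4% and 22.0% of all genes. The highest there were Igf1 (27.7 CPM against 36.3), Cxcl12, a chemokine (22.8 against 173), and Kitl, the ligand of Kit (11.9 against 68.4). In B0 over A0, 6 of the 8 were past 2-fold higher (39.0% of all genes), and in BA10 over B0 6 were past 2-fold lower (36.9% of all genes). The markers of somatic cells moved with both lists: 6 of 6 Leydig, 7 of 7 Sertoli and 7 of 7 macrophage markers were past 2-fold higher in B0 over A0, and all of these were past 2-fold lower in BA10 over B0. Of the endothelial markers 5 of 6 were higher and then 6 of 6 lower, and of the peritubular myoid markers 2 of 5 were higher and 1 lower, and then 2 of 5 lower. The markers of spermatogonia moved too, with 8 of 8 higher and then 7 of 8 lower. The part of these cells in the changes of the lists was not tested. With AOS alone, 0 genes of these 4 lists passed 2-fold, where 0.108% of all genes did.

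Over the 28 clusters, the genes most like the summed level of the 9 were Kctd18 (Pearson r = 0.96), Elp6 (0.94), Casc3 (0.94), Senp8 (0.94) and Pfas (0.94), each highest in SPG-like cells. Between members, Ret and Pou3f1 were most alike (r = 0.97), then Etv5 and Zbtb16 (0.84) and Ret and Sall4 (0.83), while Gfra1 and Id4 were at -0.43. The gene nearest to Sall4 alone among all others was Fthl17c (1.00), one of a family of near-identical copies, and the developmental RNA-binding gene Trim71 was close behind (0.99). Nearest to Lhx1 was Crmp1 (0.97), to Id4 Pomc (0.95) and to Etv5 Txndc5 (0.99). These values describe 28 clusters that share libraries and depth, and no test was made of them.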

How the data were processed

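Testis cells of 4 libraries, 1 per group, were counted by the authors with Cell Ranger 2.2.0 on mm10, per the submitters' processing notes. The values deposited by the authors are natural logs, the ln of 1 plus 10000 times the share of a gene in the UMIs of its cell, with Seurat. UMIs were recovered from them, and 100% of values were whole within 0.001. The table holds 18419 genes and 27060 cells, with 0 mitochondrial genes. The study's methods name a forced number of cells for Cell Ranger, which none of the 4 cell totals equals, and a removal of cells with few genes and of genes seen in few cells. Why the lower limits of UMIs differ is not given in the sources used here.

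Cells were clustered with Scanpy 1.11.5 and leidenalg 0.10.2 (2000 variable genes, 30 principal components, 15 neighbours, resolution 1, no alignment), leaving the described genes out of the variable genes and out of the markers. A cluster took the name with the highest mean marker level, relative to the highest cluster, unless markers of another type led it. That scoring was set after the data were seen, as was the choice to leave unnamed 1 cluster led by Dcn. Doublets were kept. Scrublet called 8.06% of A0 and 8.66% of A10, against 0.0859% of B0 and 1.27% of BA10.

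Intervals are exact at 95%: Poisson for CPM, Clopper-Pearson for shares and conditional binomial for ratios. A count of 0 was given a floor of 3 UMIs or cells. A log2 ratio had 1 CPM added, needed 10 UMIs in the libraries compared, and was counted as past 2-fold at 1 or more. The scripts were tested on simulated data. SciPy 1.17.1 and NumPy 2.4.6 were used. Gene positions are from GENCODE M21 (mm10).

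The genes, lists and markers were chosen with earlier results of these data known. Of each list, at most the 3 genes with the highest level in SPG-like cells are named, and 1 such gene is not reported here. Gdnf, the list genes that were lower or at 0 in SPG-like cells, and the gene nearest to each single member were named after their values were seen. Alternatives changed the cells, the CPM added, the depth and the clustering.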

Additional observations from a re-analysis of the deposited data

Results flagged for a closer look

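For 3 genes the log2 ratio of AOS without busulfan (A10 over A0) and that of AOS after busulfan (BA10 over B0) had opposite signs, and with 1 library in each group the difference was not tested. Etv5 was at 0.02 without busulfan and -4.48 after it, a difference of -4.51. Pou3f1 was at 0.33 and -3.56, a difference of -3.89, and Nanos3 at 0.52 and -0.15, a difference of -0.67. The intervals of Etv5 and Pou3f1 in the first ratio and of Nanos3 in the second held 0. With only cells of at least 9013 UMIs, Etv5 was at -0.055 and -1.29 and so had 1 sign, Pou3f1 was at -0.079 and 1.51 on 1 UMI in B0, and Nanos3 was at 0.49 and -1.04. No group had enough libraries to look for one that stood apart.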

How the results depend on the processing

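The summed level of the genes (a log2 ratio of 0.085 with A10 over A0, 1.17 with B0 over A0, -0.32 with BA10 over B0, and 0.85 with BA10 over A0) turned with Id4 and with depth. Without Id4, an alternative added after seeing the data, the 4 ratios were -0.024, 2.81, -3.19 and -0.38, so that the first and the last reversed. With only cells of at least 9013 UMIs, B0 over A0 was 0.50 and BA10 over B0 reversed to 0.34. As a mean over cells, A10 over A0 was 0.036, B0 over A0 1.38 and BA10 over B0 -0.50. Of the genes past 2-fold, 5 in B0 over A0 became 3 at the common UMI limit, 8 with 0.1 CPM added and 2 with 10 CPM added. The 5 in BA10 over B0 became 0 at the common limit and 3 with 10 CPM added, and without Leydig-like cells they were 0 higher and 5 lower, in place of 1 and 4, so that Id4 was no longer past 2-fold. In B0 over A0 the same setting gave 6 higher and 1 lower, in place of 4 and 1. The 2 in BA10 over A0 became 7 with 0.1 CPM and 0 with 10 CPM added. Of the single ratios whose interval left out 1, those that reversed were Id4 in B0 over A0 (-0.45), at 0.52 at the common limit and 0.40 without Leydig-like cells (added after seeing the data), and, in BA10 over B0 at the common limit, Sall4 (1.17 from -3.67) and Pou3f1 (1.51 from -3.56), each resting on 1 UMI in B0 (0.146 CPM, 0.00369 to 0.812), an interval that holds the BA10 levels. Ret, whose interval left out 1 in B0 over A0 and in BA10 over B0, had 0 UMIs in B0 at the common limit. Against 20 UMIs in A0 and 10 in BA10, no log2 ratio could be formed for it there. Ratios whose interval held 1 also changed sign in some setting: Etv5, Pou3f1 and Ret in A10 over A0, Gfra1, Lhx1 (0.27 from -0.17 at the common limit, on 1 UMI in B0) and Nanos3 in BA10 over B0, and Ret in BA10 over A0. The share of cells with at least 3 genes was, when 2 genes were enough, 4.99% in A0 and 4.53% in A10, against 6.46% in B0 and 11.5% in BA10. Thinned to 2900 UMIs it was 0.0112%, 0%, 0.622% and 0%, and to 5000 UMIs 0% in A0 and 0.0103% in A10, against 0.843% in B0 (12 of 1424 cells, since 3235 had fewer UMIs) and 0.0794% in BA10. At the common limit it was 0.519% in A0 and 0.553% in A10, against 0.670% in B0 (3 of 448 cells) and 1.03% in BA10. With at least 2 of Sall4, Pou3f1, Ret and Gfra1, chosen after seeing the data, it was 0.0783% in A0 and 0.0103% in A10, against 0.794% in B0 and 0.106% in BA10. The share of the genes' UMIs in SPG-like cells (17.0% in B0 and 0.343% in BA10) was within its interval in all clusterings of all cells. At the common limit, where the clusters were made anew, it was 1.35% in A0 and 0.641% in A10, against 0.887% in B0 and 1.78% in BA10. No paired analysis was possible because each group is 1 library, and for the same reason no library could be left out of a group. Intervals cover counting error only, and B0, with the fewest UMIs, limits the precision of genes with few UMIs.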
